A study of Caenorhabditis elegans with 2 samples.

Results

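C-type lectin genes, named clec in Caenorhabditis elegans, were examined for regions recovered with the transcription factor SMA-3 in larvae. A member was any protein-coding gene of the worm annotation whose symbol is clec followed by a number, which gave 240 of 19973 protein-coding genes. The 240 genes carry 237 symbols, because clec-15, clec-209 and clec-249 each name a pair of genes. The data are chromatin immunoprecipitations followed by sequencing from whole L2 hermaphrodites of strain CS152, taken 24 hours after release of L1 larvae that had been starved after bleaching. Worms of this strain carry the mutant allele sma-3(wk30) together with the integrated transgene qcIs, which holds gfp::sma-3 and the roller marker rol-6; a note in the labels places a GFP-FLAG tag at the C-terminus instead. An anti-GFP antibody was used on 2 biological replicates of this 1 group, and both were set against the same control alignment. A precipitation from worms without the tag is not analysed here, and the sequencing depth is unknown, so the intervals below cover counting of genes or regions only.

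C-type lectins are secreted or membrane proteins built around a fold that in many animals binds sugars, and the worm has a large family of them, many of which are expressed in the intestine or epidermis and change when the animal meets bacteria or fungi. SMA-3 is a receptor-regulated Smad that carries the signal of DBL-1, a BMP-like ligand, from the membrane to the nucleus. Loss of this pathway is known to make worms small and more sensitive to several bacteria, and lectin and lysozyme genes are among the genes whose transcripts have been described as depending on it. Of the 239 members with a RefSeq messenger RNA, 206 have a product name that includes the word lectin. The other 33 have other product names, most of them for a CUB, VWFA, CW or PAN-3 domain.

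The sequences around 6 summits in the promoter windows of 5 members are shown, because they are peaks of the optimal list with the summit in a clec promoter window. The summits at clec-53 and clec-104 are given by their values only. Each holds the summit base and 75 bp on either side, from the RefSeq worm sequence of assembly WBcel235 (ce11), and is written 5′ to 3′ on the strand of the clec gene. Capitals mark matches on either strand to the Smad-type element GTCTG, to the GC-rich element GGCGC, to the GATA element TGATAA or to the GA repeat GAGAGAGA.
clec-126, upstream summit, chrII:3519087-3519237, plus strand: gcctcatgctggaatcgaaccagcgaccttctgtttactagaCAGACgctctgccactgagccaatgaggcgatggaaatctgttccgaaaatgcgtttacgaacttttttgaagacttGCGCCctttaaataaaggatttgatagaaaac
clec-126, downstream summit, chrII:3519295-3519445, plus strand: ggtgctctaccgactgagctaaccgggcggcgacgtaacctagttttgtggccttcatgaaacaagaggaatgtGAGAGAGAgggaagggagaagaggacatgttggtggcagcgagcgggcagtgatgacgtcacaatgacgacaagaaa
clec-57, chrV:14468694-14468844, plus strand: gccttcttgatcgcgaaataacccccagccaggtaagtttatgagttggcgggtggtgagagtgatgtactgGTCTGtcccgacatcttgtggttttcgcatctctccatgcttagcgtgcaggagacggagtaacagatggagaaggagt
clec-146, chrII:13593836-13593986, minus strand: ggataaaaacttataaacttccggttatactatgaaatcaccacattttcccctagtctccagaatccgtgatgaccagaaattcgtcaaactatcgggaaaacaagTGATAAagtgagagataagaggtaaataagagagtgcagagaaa
clec-140, chrII:4672743-4672893, plus strand: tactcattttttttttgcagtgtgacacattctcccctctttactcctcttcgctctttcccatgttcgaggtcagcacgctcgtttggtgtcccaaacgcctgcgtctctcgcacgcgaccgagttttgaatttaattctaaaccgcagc
clec-1, chrV:5699994-5700144, plus strand: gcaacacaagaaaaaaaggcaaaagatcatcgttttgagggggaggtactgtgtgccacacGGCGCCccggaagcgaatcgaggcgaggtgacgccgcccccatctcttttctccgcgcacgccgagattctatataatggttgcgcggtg

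Few clec genes had an SMA-3 peak of the optimal list at their promoter. The promoter window of a gene took in 1000 bp before and 200 bp after each of its annotated start sites, and a peak counted when its summit, the highest point of the region, lay inside it. The optimal list holds the 4205 highest regions of the list pooled from both replicates. The authors derived it through a test of agreement between replicates, but a region need not rank as high in each replicate. This list placed a summit in the window of 7 of 240 clec genes (2.92%, 95% exact interval 1.18 to 5.92%) and of 2856 of the other 19733 protein-coding genes (14.5%, interval 14.0 to 15.0%). Over all protein-coding genes the share was 14.3%. The members are not independent observations, since neighbours in a cluster can share a region, and no test was run over the list. The 7 genes were clec-126, clec-57, clec-53, clec-104, clec-146, clec-140 and clec-1, and clec-126 had 2 summits in its window.

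Wider distances and weaker regions were counted in the same way. An optimal summit lay within 5000 bp of a start site, on either side, at 29 clec genes (12.1%, interval 8.24 to 16.9%) and at 6790 other genes (34.4%), against 34.1% of all genes. The pooled list of 30000 regions, most of which fell short of the optimal set, placed a summit in the promoter window of 51 clec genes (21.2%, interval 16.3 to 27.0%) and of 8243 other genes (41.8%), against 41.5% of all genes. Thus 189 clec genes had no region of any rank in their window. Because whole animals were used, occupancy in a few cells and low occupancy in many cells cannot be told apart.

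**Figure D1:**
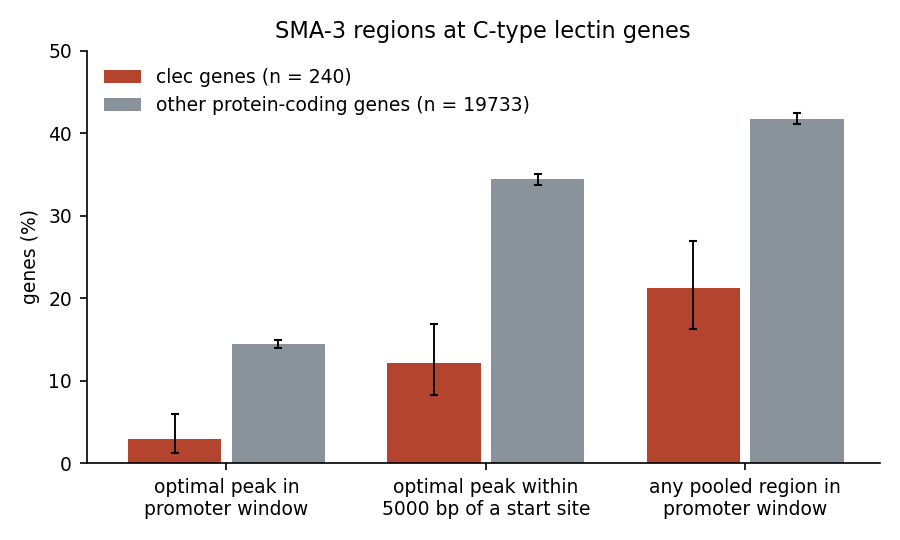
Share of clec genes (red, n = 240) and of other protein-coding genes (grey, n = 19733) in percent, with an optimal summit in a promoter window, with one within 5000 bp of a start site, and with any pooled region in a promoter window. Bars give the share and lines its 95% exact interval; the clec bars stand at 2.92, 12.1 and 21.2% beside 14.5, 34.4 and 41.8% for other genes.

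Where clec genes did have a region in the promoter window, it tended to rank lower by signal than the regions of other genes. Signal here is the value that the authors' peak caller gave each region, and rank 1 is the highest in a list. The best pooled region in the window had a median rank of 12629 over the 51 clec genes that had one and of 7024 over the 8243 other genes that had one. Ranks 1 to 4205, those of the optimal set, held the best region of 7 clec genes, ranks 4206 to 10000 held that of 14, ranks 10001 to 20000 of 15 and ranks 20001 to 30000 of 15. Among other genes the same classes held 2856, 2175, 1920 and 1292 genes. The classes differ in width; the clec counts were nearly level from the second on, and those of other genes were highest in the first. As shares of each group, these were 2.92, 5.83, 6.25 and 6.25% of clec genes and 14.5, 11.0, 9.73 and 6.55% of other genes.

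Summits of other genes concentrated just upstream of the start site, and few clec genes had one there. In the 500 bp upstream of a start site lay a summit of 5 clec genes (2.08%, interval 0.68 to 4.79%) and of 2165 other genes (11.0%). The clec share was the lower one in all 20 bins of this width within 5000 bp of a start site. Between 3000 and 3500 bp upstream, for example, it was 0.42% of clec genes and 2.32% of other genes, and between 3000 and 3500 bp downstream it was 1.67% of clec genes and 1.83% of other genes. Outside the bin just upstream, each bin held a summit for at most 4 clec genes, so the order of the clec shares among these bins cannot be read.

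**Figure D2:**
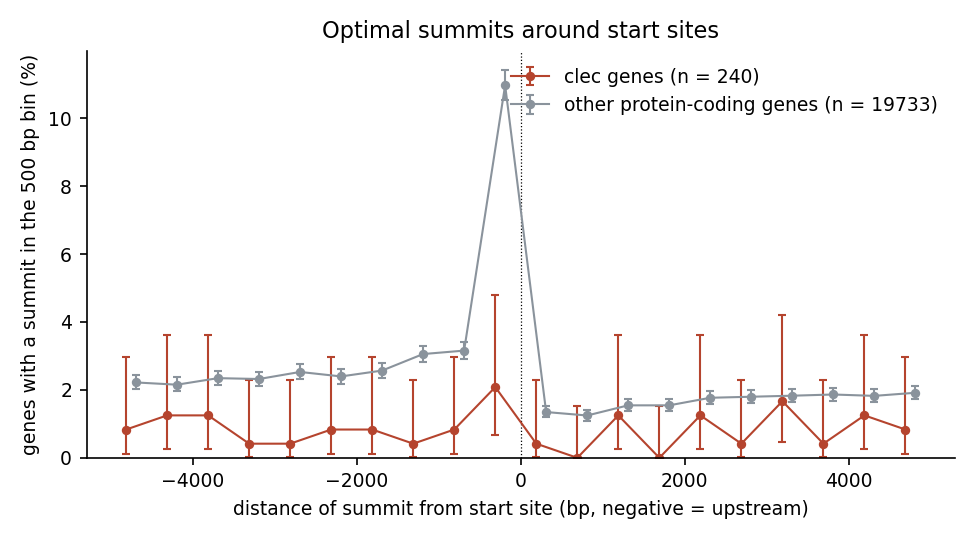
Percent of clec genes (red, n = 240) and of other protein-coding genes (grey, n = 19733) with an optimal summit in each 500 bp bin around their start sites, with 95% exact intervals. The bin just upstream of the start site holds 2.08% of clec genes and 11.0% of other genes.

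The highest clec promoter peak was that of clec-126, a gene on chromosome II encoding a protein with a C-type lectin domain. Its upstream summit, at 3519162 in the peak from 3519078 to 3519217, lay 332 bp before the start site. Its signal was 94.0 in replicate 1, 125 in replicate 2 and 217 in the pooled list, where it ranked 800, with ranks of 740 and 850 in the replicates. The second summit of the same window, 124 bp before the start site, had a pooled signal of 90.8 and rank 3107. It overlapped the same replicate regions as the upstream summit, so the replicates did not separate the 2 summits. No other protein-coding gene had these summits in its window. Transfer RNA genes did lie there: the upstream summit was 5 bp before the 5′ end of a tRNA-Thr gene (W09G10.t3, chromosome II, 3519086 to 3519157, minus strand), and the downstream summit was 48 bp before the 5′ end of a tRNA-Lys gene (W09G10.t2, 3519250 to 3519322, minus strand). The sequence printed for the upstream summit takes in most of the tRNA-Thr gene, and its GTCTG match lies inside that gene. The share of either peak due to the transfer RNA genes was not tested.

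Of the other members, clec-57 and clec-53 came next. At clec-57 on chromosome V the summit, 462 bp upstream, had a signal of 66.7 in replicate 1, 98.8 in replicate 2 and 167 in the pooled list, rank 1287. The same summit lay 523 bp upstream of srz-97, a chemoreceptor-family gene, and 36 bp before the 5′ end of the small nuclear RNA gene F08H9.11. At clec-53 on chromosome I the summit, 562 bp upstream, had a signal of 66.1 in replicate 1, 89.3 in replicate 2 and 161 in the pooled list, rank 1363. This summit lay in an intron of uba-5, which encodes the activating enzyme of the ubiquitin-like modifier UFM1, and a start site of uba-5 was nearer to it, at 267 bp. Both regions ranked between 1278 and 1532 in each replicate.

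The 4 remaining promoter peaks had pooled ranks between 2817 and 3414. The summit of clec-104 on chromosome I, 988 bp upstream and so near the limit of the window, had a signal of 53.8 in replicate 1, 44.6 in replicate 2 and 98.6 in the pooled list, but lay 224 bp from the start site of ciao-1, a gene of cytosolic iron-sulphur protein assembly. The summit of clec-146 on chromosome II, 137 bp upstream, had a signal of 46.8 in replicate 1, 44.7 in replicate 2 and 91.6 in the pooled list. No other protein-coding gene had this one in its window. The summit of clec-140 on chromosome II, 242 bp upstream, had a signal of 27.2 in replicate 1, 54.9 in replicate 2 and 89.97 in the pooled list. It lay 267 bp upstream of hmg-11 as well, and with a rank of 4894 in replicate 1 it fell outside the 4205 highest regions of that replicate.

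At clec-1 on chromosome V the promoter summit lay 85 bp upstream, with a signal of 33.6 in replicate 1, 47.4 in replicate 2 and 84.3 in the pooled list, rank 3414. It was inside an unclassified non-coding RNA gene, F25B4.12, and in no other protein-coding window. This gene had 3 more optimal summits nearby, 2348 and 1802 bp upstream and 1139 bp downstream of its start site, with pooled signals of 96.2, 125 and 146. All 4 summits had clec-1 as the nearest protein-coding gene. Together with clec-126, which also had 4 summits within 5000 bp, it had the most of any clec gene.

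The 8 promoter summits were looked up in each replicate list. All 8 overlapped a region of each replicate list by at least 1 bp, and 7 overlapped one of the 4205 highest in both, the exception being clec-140. Ranks differed most between replicates at clec-104, at 1954 in replicate 1 and 3994 in replicate 2. Under a reciprocal overlap of 50% the count in both was 3 of 8. At clec-126 (both summits), clec-57 and clec-53 the replicate 1 overlap was 36.5, 29.2, 47.9 and 46.4% of the wider region. Those 4 optimal peaks were 112 to 184 bp wide and the other 4 were 400 bp, so this count depends on region width. It also used only the 4205 highest regions of each replicate, which left out clec-140 by its rank in replicate 1. For all optimal promoter peaks the count under a reciprocal overlap of 50% was not computed. By the 1 bp rule the share of all optimal promoter peaks in both was 82.2%. Since the optimal list was derived from these replicates, the overlap is partly built in. The median pooled signal of the 8 was 95.1 against 129 for the 2357 optimal peaks in promoter windows, and their median rank was 2943 against 2103 for the optimal list. Of the 8 summits, 4 lay in the window of another protein-coding gene as well, those of clec-57, clec-53, clec-104 and clec-140 (50%, interval 15.7 to 84.3%), beside 673 of all 2357 promoter peaks (28.6%).

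**Figure D3:**
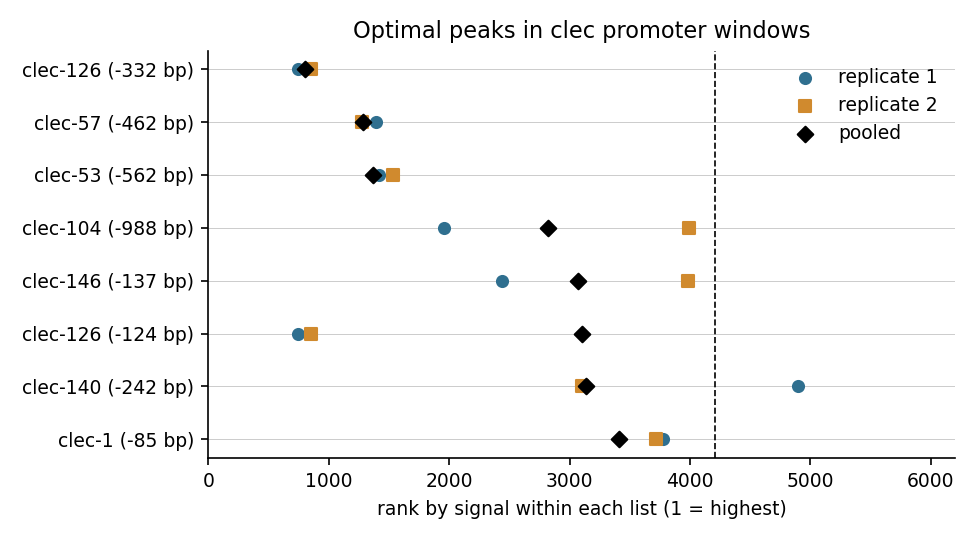
Rank by signal, 1 being the highest, of the 8 optimal summits in clec promoter windows, in replicate 1 (circles), replicate 2 (squares) and the pooled list (diamonds), with the distance of the summit from the clec start site in bp. The dashed line marks rank 4205, the size of the optimal list; the replicate 1 region of clec-140, at 4894, is the one beyond it.

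Members just inside and just outside the signal limit of the optimal list had these values. The last 5 inside it, clec-53, clec-104, clec-146, clec-140 and clec-1, had pooled ranks of 1363 to 3414 and signals of 161 to 84.3. The first 5 outside it were clec-78 at rank 4407 and signal 67.3, clec-72 at 4827 and 62.1, clec-145 at 5810 and 51.9, clec-186 at 6219 and 48.8, and clec-218 at 6591 and 45.9, each with its summit within 283 bp of the start site and in no other protein-coding window. In replicate 1 clec-78 ranked 4160, inside the 4205 highest regions, and in replicate 2 it ranked 5518.

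Many peaks near clec genes also lay at other features of the neighbourhood. The 29 genes with a peak within 5000 bp did so through 36 peaks, since neighbours can share one. Of these peaks 17 had their summit in the promoter window of a protein-coding gene that is not a clec, and for 12 of the 29 genes every nearby peak was of this kind. A tRNA, snRNA or snoRNA gene lay within 100 bp of 8 peaks, 3 of which were also in such a window. Only 2 peaks were in a clec promoter window and at neither kind of feature, those of clec-146 and clec-1, and 12 lay in no promoter window and at no such RNA gene. A clec gene had the nearest start site for 11 of the 36. Of all 4205 optimal peaks, 2357 had their summit in the promoter window of some protein-coding gene, so such a position is common among peaks anywhere.

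**Figure D4:**
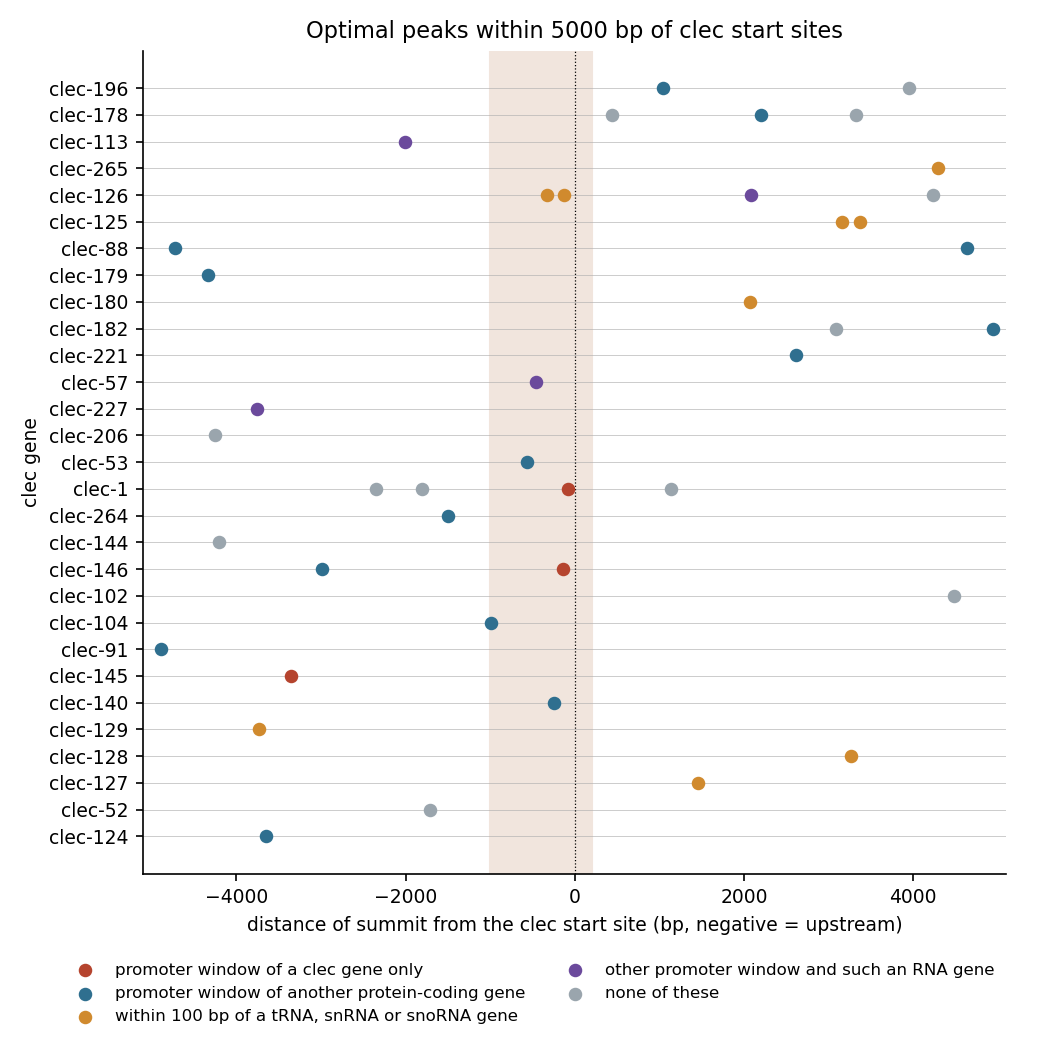
Distance in bp from the clec start site, negative being upstream, of each optimal summit within 5000 bp of the 29 clec genes that had one, ordered from the gene with the highest nearby peak at the top. The shaded band is the promoter window; red summits lie in a clec promoter window alone, blue in that of another protein-coding gene, orange within 100 bp of a tRNA, snRNA or snoRNA gene, purple at both of those and grey at none. Only clec-146 and clec-1 have a red summit in their own window.

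Among the highest of these peaks were some that lay near well-known genes. The peak of pooled rank 29 was in the promoter window of the constitutive Hsp70 gene hsp-1 and lay 1038 bp downstream of the start of clec-196. Its signal was 250 in replicate 1, 499 in replicate 2 and 744 in the pooled list. At clec-178, whose start lies inside the span of the Nrf-family transcription factor gene skn-1, peaks of rank 406 in a skn-1 intron and of rank 1301 in a skn-1 promoter window lay 3329 and 2196 bp downstream. Another, of rank 3096, lay in an intron of both clec-178 and skn-1, 440 bp from the clec-178 start, and had clec-178 as the nearest start site.

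Other members of this kind were near genes of diverse roles. The peak near clec-113, rank 474, lay 8 bp into the snoRNA gene F47G4.9 and in the window of hmg-6. Peaks at lin-23, an F-box gene, and at K10B2.4 lay 4631 bp downstream and 4722 bp upstream of clec-88. The clec-264 peak was in the window of ndua-1, which encodes a subunit of respiratory complex I, that of clec-91 in the window of mel-26, an adaptor of a cullin ubiquitin ligase, and that of clec-221 in the window of F17C11.4 and the UTR of the collagen gene col-153. Each lay at least 1499 bp from the clec start site. The summits of clec-179 and of one clec-182 peak were likewise in windows of other genes, srlf-7 with C42D4.13 and C33D9.3, while those of clec-206, clec-144, clec-102 and the other clec-182 peak were in no window.

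Small RNA genes recurred in this set. Such an RNA gene lay within 100 bp of 8 of the 36 peaks near clec genes (22.2%, interval 10.1 to 39.2%) and of 371 of all 4205 optimal peaks (8.82%), and of 3 of 8 peaks in clec promoter windows (37.5%, interval 8.52 to 75.5%) and 113 of all 2357 promoter peaks (4.79%). On 8 peaks the intervals are wide, and the comparison was chosen after the values were seen. Both promoter summits of clec-126 are among the 8 and among the 3, and they overlapped the same replicate regions. The peaks are thus not independent. Besides clec-126 and its upstream neighbour clec-125, which share the tRNA-Thr and tRNA-Lys peaks, a further clec-126 peak, of rank 2159 and 2083 bp downstream, lay beside a tRNA-His gene and in the window of W09G10.9. A peak of rank 3296 beside tRNA-Lys and tRNA-Thr genes was the one peak near clec-127, clec-128 and clec-129. The peak near clec-265 on X, rank 536, lay between tRNA-Glu and tRNA-Gly genes. That near clec-180, rank 955, lay 51 bp before the snoRNA gene F32E10.10. The clec-227 peak was the clec-57 peak described above.

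Members described in infection studies were counted as a list of their own. A list of 20 clec genes known from such work, among them clec-60, clec-85 and clec-67, had 0 of 20 with an optimal promoter summit, which allows a share of up to 16.8% by the exact interval and so includes both the 2.92% of all clec genes and the 14.3% of all protein-coding genes. A peak within 5000 bp was found at 1 of the 20 (5%, interval 0.127 to 24.9%), beside 34.1% of all protein-coding genes. This gene, clec-52 on chromosome IV, had its peak 1715 bp upstream, with a signal of 30.5 in replicate 1, 46.5 in replicate 2 and 82.5 in the pooled list, rank 3485. In replicate 1 it ranked 4281, just outside the 4205 highest. In the pooled list 8 of the 20 had a region of any rank in the window (40%), beside 21.2% of all clec genes and 41.5% of all protein-coding genes: clec-67 at rank 7748, clec-86 at 8206, clec-50 at 10594, clec-63 at 12431, clec-42 at 13531, clec-71 at 14062, clec-83 at 16928 and clec-66 at 21850. All 8 ranked below the optimal set.

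Promoter peaks were also counted at genes that regulate immune effectors. In a list of 20 such regulators, 11 had a promoter peak (55%, interval 31.5 to 76.9%), beside 7 of 240 clec genes and 14.3% of all genes. The highest were nipi-3, a Tribbles-family kinase-like gene (pooled signal 407, rank 191), zip-2, a bZIP factor of the response to blocked translation (398, rank 204), cebp-1, a C/EBP-type factor that nipi-3 restrains (359, rank 264), and atf-7, the factor phosphorylated by the p38 kinase PMK-1 (246, rank 624). The JNK-like kinase gene kgb-1 (203), whose summit lay in the window of T07A9.12 as well, the STAT-like gene sta-2 (176), skn-1 (166), the TFEB-like gene hlh-30 (165), the intestinal GATA factor gene elt-2 (101), the MAP kinase phosphatase gene vhp-1 (101) and the SARM-type adaptor gene tir-1 (76.0) followed. Of the 11, tir-1 alone fell outside the 4205 highest regions of a replicate, at rank 7470 in replicate 1. The vhp-1 summit, 926 bp upstream, ranked 2713 in the pooled list but overlapped regions of rank 237 in replicate 1 and 175 in replicate 2. The remaining 9 of the 20, pmk-1, sek-1, nsy-1, elt-7, daf-16, pqm-1, fshr-1, mpk-1 and dkf-2, had no promoter peak. Within 5000 bp of a start site, 17 of the 20 had a peak (85%, interval 62.1 to 96.8%), beside 34.1% of all genes. The counts describe these lists, which differ in size and were not tested against each other. The regulator list was drawn from general knowledge with earlier results of these data known, so its share cannot be read as an excess at regulators. With only the most upstream start site of each gene counted, 6 of the 20 regulators and 7 of the 240 clec genes had a promoter peak. The share of all genes was then 13.4%. With every start site counted, 4 of 10 genes of the DBL-1 pathway had a promoter peak (40%, interval 12.2 to 73.8%). That interval includes the 14.3% of all genes.

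Families of similar kind gave further points of reference. Lysozyme genes of the lys family, another class of immune effector, had a promoter peak at 0 of 10 genes. The lys interval, up to 30.8%, includes the 14.3% of all protein-coding genes. Chemoreceptor genes of the srh family, a large family in clusters, had one at 7 of 220 (3.18%, interval 1.29 to 6.45%). The clec share of 2.92% lay inside the srh interval. Within 5000 bp the shares were 12.1% of clec genes, 10% of lys genes and 5.91% of srh genes, beside 34.1% of all protein-coding genes. For the 10 lys genes the interval was 0.253 to 44.5%, which includes that share.

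Counts were also made by chromosome. Chromosome V held 86 members, IV 53, II 48, I 36, III 14 and X 3. Promoter peaks were at 3 genes on II, 2 on I, 2 on V and 0 on III, IV and X. On IV, where 0 of 53 members had one, the interval reached 6.72% and other genes of that chromosome had 13.5%. Within 5000 bp the clec share ran from 0 of 14 on III to 1 of 3 on X (33.3%), with 11 of 48 on II (22.9%) next, and was below that of other genes on each chromosome. The intervals for III and X were wide, and those of the promoter share overlapped between all 6 chromosomes.

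**Figure D5:**
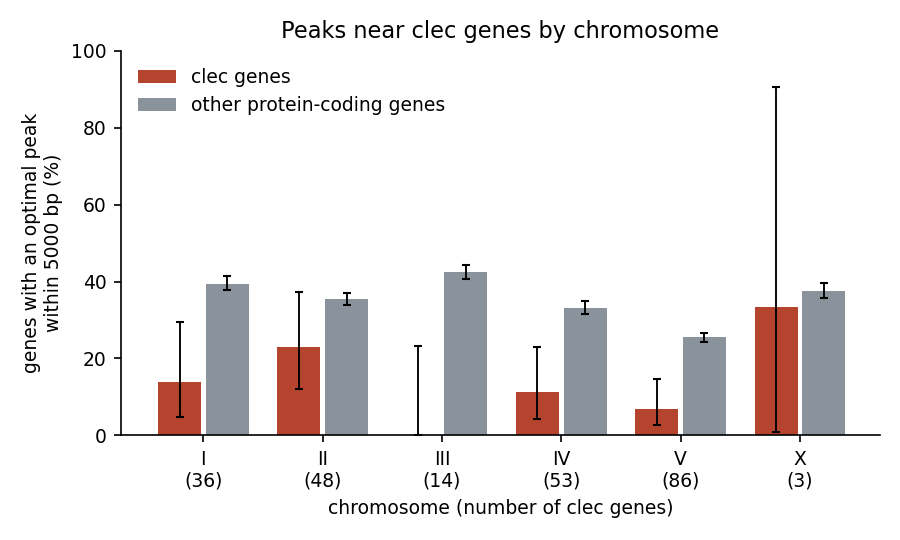
Percent of clec genes (red) and of other protein-coding genes (grey) with an optimal summit within 5000 bp of a start site, by chromosome, with 95% exact intervals and the number of clec genes in brackets. The clec bars lie below the grey bars on all 6 chromosomes, from none of 14 genes on III to 1 of 3 on X.

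Members were also split by whether they lay in clusters. With start sites within 5000 bp joined, 42 clusters held 126 genes and 114 genes stood alone. A promoter peak was found at 3 clustered genes (2.38%, interval 0.494 to 6.80%) and at 4 single genes (3.51%, interval 0.964 to 8.74%). The largest cluster, 11 genes on V that begin with clec-22, had no optimal summit within 5000 bp of any start site. The next 2, of 7 genes each, were that of clec-127 on II, with 3 genes near the tRNA peak described above, and that of clec-93 on I, with none.

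The neighbourhood of clec genes, described here with measures chosen after the values were seen, was counted next. Other genes with a start site within 10000 bp of a clec start had a promoter peak at 52 of 646 (8.05%, interval 6.07 to 10.4%), above the 2.92% of clec genes and below the 14.3% of all genes. Each autosome was also cut into 3 equal lengths. In the outer parts the share was 7 of 201 clec genes (3.48%) and 12.7% of other genes, and in the central parts it was 0 of 36 clec genes, with an interval up to 9.74%, and 17.1% of other genes. All 7 clec genes with a promoter peak were in outer parts.

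Base composition and repeated sequence were compared with the same counts. Promoter windows of clec genes had a median GC content of 35.6% and those of other genes 34.9%. In each of 4 classes of GC content the clec share was lower: 0 of 33 clec genes against 6.86% of others in the lowest class, 1 of 63 against 12.1%, 2 of 62 against 17.1% and 4 of 82 (4.88%) against 21.6% in the highest. The sources do not say how reads from repeated sequence were treated, and each window was scored by the share of its 32-base words that occur once in the genome. That share was at least 90% at 197 of 240 clec genes (82.1%) and at 85.9% of other genes. Among genes with such windows, 4 of 197 clec genes (2.03%) and 15.6% of other genes had a promoter peak. The clec-15, clec-209 and clec-249 gene pairs were at the repeated end, at no more than 12.5%, and none had a peak within 5000 bp; of the genes with a promoter peak, clec-146, clec-104 and clec-57 were below 90%.

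Short sequence patterns at the clec peaks were counted, on either strand, within 75 bp of each summit. The patterns were GTCTG, the Smad-type element; CAGACA, which contains the reverse complement of GTCTG and so overlaps it; GGCGC, a GC-rich element bound by Smads of flies and vertebrates; TGATAA, the GATA element; CACGTG, the E-box; and GAGAGAGA, a GA repeat. Of the 36 peaks within 5000 bp of a clec gene, 30.6% held GTCTG, 38.9% GGCGC, 16.7% TGATAA, 13.9% CAGACA, 13.9% GAGAGAGA and 2.78% CACGTG. Over all 4205 optimal peaks the same shares were 24.3, 23.5, 18.9, 12.7, 8.70 and 9.44%. Each of these shares lay inside the 95% exact interval of the clec share at this width, which for GGCGC ran from 23.1 to 56.5%. With 150 bp on each side of the summit GTCTG was found in 58.3% of the 36 peaks (interval 40.8 to 74.5%) and in 36.9% of all optimal peaks, which lay outside that interval. Among all patterns and widths counted for the 36 peaks, this was the only such case. The windows of the clec-126 summits 332 and 124 bp upstream overlap at this width, so the windows are not independent.

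An equally wide stretch around the point 199 bp upstream of the start site served to describe promoters without a peak. In the 233 clec promoters without one, GTCTG was found in 13.7%, GGCGC in 5.58%, TGATAA in 23.2%, CAGACA in 5.58%, GAGAGAGA in 0 and CACGTG in 1.72%. In the promoters of all 19973 genes the shares were 14.7, 8.27, 16.5, 6.92, 1.71 and 2.48%. The exact intervals of these clec promoters, 17.9 to 29.1% for TGATAA and 0 to 1.57% for GAGAGAGA, did not include the share of all genes. Those of the other patterns did. The median GC content was 44.4% in the windows of the 36 peaks and 33.1% in those of the 233 promoters. Among the 8 peaks in clec promoter windows, 2 held GTCTG, 4 held GGCGC, 1 held TGATAA and 1 held GAGAGAGA. The GGCGC matches were at clec-1, clec-53, clec-104 and the upstream summit of clec-126, and the TGATAA match was at clec-146. The clec-140 window, shown above in lower case throughout, held none of the 6 patterns, which says only that these letters were not found in that stretch.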

How the data were processed

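Per the file listing deposited with each sample, the authors called regions in each replicate against 1 shared control alignment, called a pooled list from both, and derived the optimal list by an irreproducible discovery rate procedure; aligner, peak caller, thresholds and depth: not given in the sources used here. Column 7 of each ce11 list holds the deposited signal value of the authors' caller, with no stated scaling, and was used to order regions in their own list and to describe them. The pooled list and both replicate lists have 30000 regions apiece, and the 4205 optimal peaks are the highest of the pooled list. No region ran past the end of its chromosome, and no coordinate was converted.

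Genes, start sites (29314 of protein-coding transcripts) and non-coding genes came from Ensembl release 115 (WBcel235), and sequence and product names from RefSeq for the same assembly. A replicate matched a peak through its highest region overlapping by at least 1 bp. Shares carry 95% exact (Clopper-Pearson) intervals. The joining of summits to start sites was tested on simulated data. Protein sequences were not analysed here.

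The members and lists were chosen with earlier results of these data known, and the infection and regulator lists come from general knowledge. Genes named are members with a promoter peak, infection-list members with a peak within 5000 bp, up to 20 further members with the highest nearby peaks, genes sharing those windows, regulators with a promoter peak, and the 5 members on each side of the signal limit; others were named after their values were seen. Chosen after the values were seen were also the counts by distance bin, rank class, neighbours, part of the autosome, GC class, repeated sequence, non-coding class, product name, lysozyme and srh genes, and the alternative with as many regions as the ce10 optimal list. Computations used scipy 1.17.1, numpy 2.4.6 and pandas 2.3.3 under Python 3.11.15, with figures from matplotlib 3.10.9.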

Additional observations from a re-analysis of the deposited data

How the results depend on the processing

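The number of clec genes with a promoter peak was 7. It was 5 with a narrower window and 9 with a wider one, while 11.4% and 18.4% of all genes had one. With the nearest start site only it was 5 (11% of all genes), and with the most upstream only 7 (13.4%). Without replicate 1 it was 7 (14.3% of all genes), without replicate 2 also 7 (13.9%), and with clusters counted once 7 of 156. With as many of the highest pooled regions as the optimal list on the ce10 build holds, it was 9 (17.2% of all genes). That alternative was chosen after seeing the data. It was 3 with the 2102 highest optimal peaks and 51 with all pooled regions, while the share of all genes was 8.36% and 41.5%. Of the 7 genes, clec-126 and clec-57 had their peak in all 9 alternatives run per gene; clec-1, clec-104, clec-140 and clec-146 lost it with the 2102 highest peaks, clec-53 and clec-104 with the narrow window and with the nearest start site only, and clec-140 without replicate 2. With either replicate left out the count was 7, but without replicate 2 clec-140 left the set and another clec gene entered it.

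Within 5000 bp the count of 29 became 16 with the 2102 highest peaks, 142 with all pooled regions, 12 at 2000 bp and 58 at 10000 bp; all genes then had 21.2%, 72.6%, 21% and 50.3%. It was 29 without replicate 1 and 30 without replicate 2, while all genes had 34% and 33.8%. Infection-list genes with a promoter peak numbered 8 with all pooled regions and 1 with the window of 2000 bp, while all genes had 41.5% and 18.4%. With a peak within 5000 bp they numbered 0 with the 2102 highest peaks and 17 with all pooled regions, while all genes had 21.2% and 72.6%. With 1 replicate left out, the number within 5000 bp was 0 to 1, since clec-52 was lost without replicate 2. Regulators with a promoter peak numbered 18 with all pooled regions and 6 with the most upstream start site only, while all genes had 41.5% and 13.4%. With a reciprocal overlap of 50%, 3 of the 8 clec promoter peaks were in both replicates. That count depends on region width and, at clec-140, on its rank in replicate 1. With 25 bp on each side of the summit the share of the 36 nearby peaks fell to 13.9% for GTCTG, 16.7% for GGCGC, 5.56% for TGATAA and 0 for CACGTG, and that of TGATAA in the 8 promoter peaks to 0; with 150 bp on each side the share with GTCTG was 58.3%, and 36.9% over all optimal peaks. The wider the window, the more sequence was searched. No paired analysis was possible because there is 1 group.

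Both replicates are of 1 genotype and stage, so nothing here compares conditions. Signal of the control and of untagged worms was not analysed, and depth is unknown, so a region missed at low signal cannot be told from one that is absent. With 8 promoter peaks, differences of motifs or neighbours are not resolved.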
